A study of Mus musculus with 25 samples.

Results

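The 10 genes described here encode actins and the proteins that line, bundle or contract actin filaments: *Acta2*, *Actb*, *Actg1*, *Tagln*, *Tagln2*, *Cnn2*, *Myl9*, *Tpm1*, *Tpm2* and *Cald1*. They were 10 of the 48440 genes in the count table and were found by matching Ensembl gene identifiers to these symbols. They were selected on transcript levels of the clones themselves: *Acta2* fell most steeply with mutation strength across the clones, and *Actb* had the most counts of any gene in T41S clone H8. Comparisons between strong and weak clones are therefore given as descriptions with no test of these genes, whereas the CHIR99021 series of unedited cells, which is not among these grounds, was tested.

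Actin filaments are polymers of actin monomers, and their contraction by non-muscle or smooth muscle myosin gives a cell its tension and shape. *Actb* and *Actg1* encode the cytoplasmic actins of every cell, while *Acta2* encodes the smooth muscle isoform, which is also made by myofibroblasts. Many genes of this kind are targets of the serum response factor Srf, which binds CArG boxes together with cofactors of the MRTF family, and monomeric actin holds these cofactors back.

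All cells were E14 mouse ES cells, a line that needs no feeder cells, kept in serum and leukemia inhibitory factor. The study asked how far missense mutations in the degron of β-catenin, the stretch through which GSK3β marks the protein for degradation, activate Wnt signaling, with the GSK3β inhibitor CHIR99021 as a control. RNA was sequenced in bulk from the 3′ end, with molecular identifiers, in unedited cells given CHIR99021 for 48 h at 5 doses (0, 2.5, 5, 7.5 and 10 µM; 2 libraries each) and in 15 clones with a mutation in 1 *Ctnnb1* allele, labelled 0 µM. Clones were picked after replacement of a selection cassette and are given here in the study's categories of low, medium and high mutation effect score (MES), called weak, medium and strong. The weak clones were T41S clone H8, T41N clone D3 and S45C clone D3. The medium clones were S45P clone G5 and S45F clones C1 and D9. The 9 strong clones were those with T41I (B9, A6), T41A (C1, E6), S37Y (A5), S37F (H2, G1), S37C (G12) and S37A (A10). MES is a reporter readout of the mutation measured apart from these libraries, but the study drew the 3 categories by clustering these libraries. Each clone was 1 library, and whether the 2 libraries of a dose came from separate cultures is not given in the sources used here, so the p-values measure only the spread between these samples.

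The libraries held 306157 to 2083398 counts. The defining ES cell markers *Nanog*, *Sox2*, *Zfp42* and *Esrrb* were found in every library, and *Pou5f1* was counted at only 9.05 to 28.8 CPM (counts scaled to a common library total) in all of them. The share of counts on mitochondrial genes lay between 0.485% and 0.562% in 4 CHIR99021 libraries (the second at 0 µM, and the first at 2.5, 5 and 10 µM), between 0.986% and 1.46% in the other 6, and between 1.53% and 2.52% in the clones. Editing, picking of clones and library quality cannot be told apart from the mutation where clones are set beside unedited cells, and in bulk RNA fewer cells of a type cannot be told apart from less RNA per cell.

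A subset of the genes, *Acta2*, *Actg1*, *Cnn2* and *Myl9*, had a CArG box or a near match in the RefSeq promoter window of GRCm38.p6, which runs from 250 bases before to 50 bases after the start of the gene. The 10-base CArG box reads the same way on both strands. An exact match was present in *Actg1*, *Cnn2* and *Myl9*, against 1.63% of all 32851 windows. A match with at most 1 G or C among the 6 inner bases was present in these genes and in *Acta2*, against 9.98% of all windows. Both *Acta2* matches lie in what GENCODE M21 annotates as the first exon of a longer transcript, upstream of the RefSeq start, and the others lie in no annotated exon of the 10 genes. The 30 bases around each match are shown because they are the element through which Srf is known to reach genes of this class, with the match in capitals and positions counted from the RefSeq start.
*Acta2* at -84, chr19:34255438-34255467, minus strand, near match: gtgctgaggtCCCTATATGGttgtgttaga
*Acta2* at -34, chr19:34255388-34255417, minus strand, near match: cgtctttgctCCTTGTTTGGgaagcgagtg
*Actg1* at -90, chr11:120348566-120348595, minus strand, exact match: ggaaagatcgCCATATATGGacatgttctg
*Cnn2* at -56, chr10:79988534-79988563, plus strand, exact match: cgcttccacgCCTTATAAGGacatttgctc
*Myl9* at -161, chr2:156775293-156775322, plus strand, exact match: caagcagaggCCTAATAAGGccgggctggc
*Myl9* at -99, chr2:156775355-156775384, plus strand, near match: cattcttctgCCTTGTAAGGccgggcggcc

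Windows were found for 8 of the 10 genes, 9 windows in all, and *Actb* and *Tagln* were not analysed here. The letters GGAATG, a core to which TEAD factors bind, were read on both strands in the windows of *Acta2*, *Tagln2*, *Tpm1* and *Cald1*, against 14.7% of all windows. CTTTGAT, a core to which Tcf and Lef factors bind, was in none of the 9 windows, against 3.73% of all windows. Such matches describe the letters of these windows only, and their relation to the levels described next was not tested.

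*Acta2* (ENSMUSG00000035783.8; chromosome 19, 34241090 to 34255590 of GRCm38, minus strand) ranged over more than 2 orders of magnitude between clones. Its transcript level was 1169 CPM in T41S, 646 CPM in T41N and 241 CPM in S45C. The medium clones held 133 CPM in S45P and 53.3 and 25.7 CPM in the S45F clones C1 and D9. In the strong clones it was 8.18 CPM at the lowest in S37F clone G1, 22.4 CPM at the median in S37F clone H2 and 44.8 CPM at the highest in T41I clone B9. The untreated unedited libraries, at 64.7 and 87.2 CPM, lay above all 9 strong clones and below all 3 weak clones, and the weak mean of 685 ± 465 CPM (SD, n = 3) was 27.4 times the strong mean of 25.03 ± 14.3 CPM (SD, n = 9). Without T41S, a setting chosen after seeing the data, it was 17.7 times. The spread between clones of 1 mutation sets the scale for this order. The higher of the 2 clones of S37F, S45F, T41A and T41I exceeded the lower by 1.36 to 2.74 times, so that neither the step from T41N to T41S (1.81 times) nor that from S45C to T41N (2.67 times) was larger than the widest gap between clones of 1 mutation, whereas T41S exceeded S45C 4.84 times.

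The other genes of smooth muscle type had the same order of clones at the top. *Tagln*, which encodes the actin-bundling transgelin (SM22α), was at 1147 CPM in T41S, 621 CPM in T41N and 373 CPM in S45C. Its medium clones held 152 CPM in S45P and 92.3 and 28.4 CPM in S45F, and its strong clones ran from 34.1 CPM through a median of 39.0 to 86.1 CPM, all under the untreated 89.7 and 128 CPM. *Myl9*, the regulatory light chain of smooth muscle and non-muscle myosin, was counted far less often. It was at 67.8, 38.3 and 36.2 CPM in T41S, T41N and S45C, and at 0.744 to 6.69 CPM in the strong clones, where a library's limit of 3 counts corresponds to 1.48 to 3.07 CPM. The lowest strong clone, S37A, had a single count, so that no order among the strong clones was detectable at this depth. The *Myl9* levels of T41N, S45C and the medium clone S45P rested on 19, 24 and 22 counts, so their order lay within counting error too. In none of *Acta2*, *Tagln* and *Myl9* did the weak and the strong clones overlap.

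Tropomyosins, caldesmon and calponin line the filament and set the access of myosin to it. *Tpm1* was at 2628 CPM in T41S, 785 CPM in S45C and 142 to 219 CPM in the strong clones, beside 427 and 429.5 CPM in untreated cells. *Tpm2* was at 249.7 CPM in T41S, 121 CPM in T41N and 69.4 CPM in S45C, and at 18.7 to 29.6 CPM in the strong clones. For *Tpm2* the S45C clone lay inside the untreated range of 60.3 to 77.6 CPM, so that weak clones as a group did not stand above untreated cells. *Cald1* was at 944, 472 and 291 CPM in T41S, T41N and S45C. Its strong clones, at 69.8 to 129 CPM, overlapped both the medium clones (73.4 to 158 CPM) and the untreated libraries (116 and 122 CPM), so that the difference lay between the weak clones and all others. *Cnn2*, calponin 2, was at 1116 CPM in T41S and 392.2 CPM in S45C, and its strong clones, at 106 to 204 CPM, lay below the untreated 240.3 and 275 CPM.

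The cytoplasmic actins and *Tagln2* varied least. *Actb* (ENSMUSG00000029580.14; chromosome 5, 142903115 to 142906754, minus strand) was at 24509 CPM in T41S, 19699 CPM in T41N and 12133 CPM in S45C. Its strong clones ran from 8382 through 9562 to 13528 CPM, and the S45C value fell inside that range. Among its medium clones S45P, at 15175 CPM, was above S45C. *Actg1* was at 459 CPM in T41S and at 177 to 286 CPM in the strong clones, and the untreated libraries, at 192 and 206 CPM, lay within the strong range. *Tagln2*, the transgelin of non-muscle cells, was at 683 CPM in T41S but at 291 CPM in S45C, below 6 of the 9 strong clones. Reads of *Actb*, *Actg1* and the tropomyosins can be shared with near-identical pseudogenes, so their levels carry that uncertainty.

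**Figure D1:**
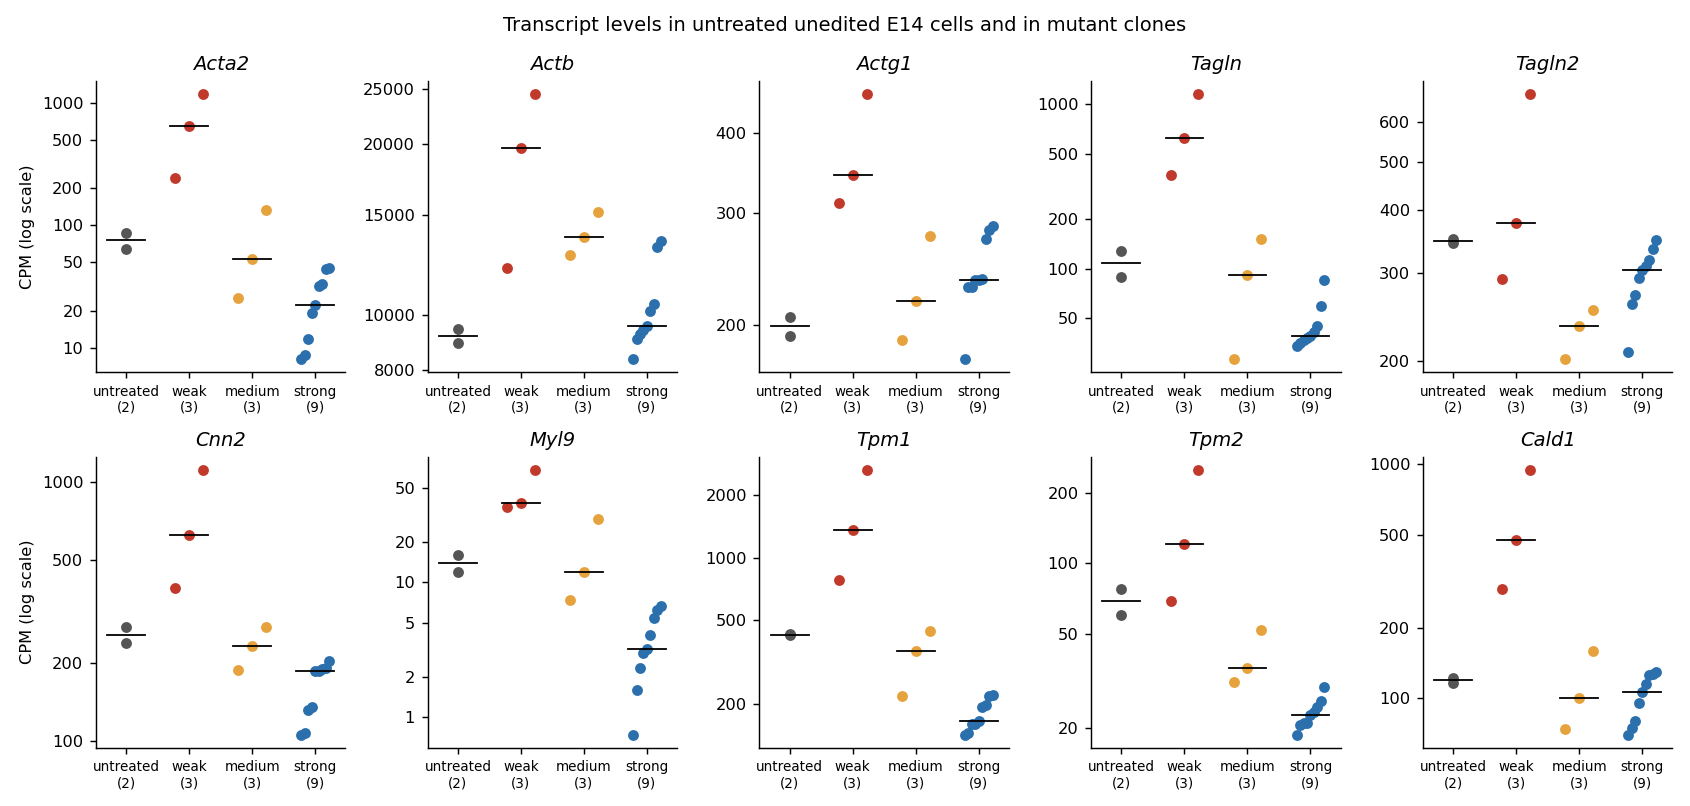
Transcript level (CPM, log scale) of each gene in 2 untreated unedited libraries and in the 3 weak, 3 medium and 9 strong clones; each point is 1 library and each bar a median. *Acta2*, *Tagln*, *Myl9*, *Tpm1* and *Tpm2* show strong clones below untreated cells, whereas *Actb*, *Actg1*, *Tagln2* and *Cald1* show overlapping ranges.

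Over the 10 genes, T41S was the highest clone for 10 and T41N the next for 10, and S45C followed for 8, with S45P in its place for *Actb* and S37Y for *Tagln2*. For *Myl9* the order below T41S lay within counting error. The genes were chosen on these clones and the share of all genes with this order was not determined, so it is a description. The weak mean exceeded the strong mean 27.4 times for *Acta2*, 15.5 times for *Tagln*, 12.8 times for *Myl9*, 8.95 times for *Tpm1*, 6.38 times for *Tpm2*, 5.57 times for *Cald1* and 4.44 times for *Cnn2*, but 1.82 times for *Actb* and 1.53 times for both *Actg1* and *Tagln2*. Without T41S the ratio was 4.14 for *Tpm2* and, *Acta2* aside, 1.14 (*Tagln2*) to 10.8 (*Tagln*) for the other 8. All strong clones lay below all weak clones for 8 of the 10 genes, and 11.1% of all genes whose mean reached 20 CPM did so too. These shares use the same clones as the choice of the genes and are read as a description. All medium clones lay below all weak clones for 9 of 10 genes (13.1% of all such genes), and all strong clones below all medium clones for 2 of 10, *Myl9* and *Tpm2* (4.01%).

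Against untreated cells, all 9 strong clones were lower for 6 of 10 genes, namely *Acta2*, *Tagln*, *Cnn2*, *Myl9*, *Tpm1* and *Tpm2*, whereas 17.4% of all genes with at least 20 CPM had this pattern. All 3 weak clones were above both untreated libraries for 8 of 10 genes, with *Tagln2* and *Tpm2* the exceptions, but 33.6% of all genes did the same. The 10 genes together took 3.30% of all counts in T41S and 2.43% in T41N, against 0.929% to 1.69% in the other 13 clones and 1.06% and 1.11% in untreated cells.

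Sums of fibroblast and mesenchymal markers and of muscle markers were highest in T41S among the clones, whereas the mesoderm and primitive endoderm sums showed no such order. The mesoderm sum was 44.4 to 90.4 CPM in the weak clones and 28.7 to 96.1 CPM in the strong clones. Within it *Hand1* was at 18.6, 26.2 and 10.6 CPM in T41S, T41N and S45C and at 3.05 CPM on average in the strong clones. *T* and *Eomes* went the other way, at 25.4 and 12.3 CPM on average in the weak and 33.7 and 17.0 CPM in the strong clones. The primitive endoderm sum was 22.6 to 48.6 CPM in the weak clones and 7.76 to 262 CPM in the strong clones. Summed over 11 fibroblast and mesenchymal markers, the level was 964 CPM in T41S, 730.4 CPM in T41N and 320 CPM in S45C, against 129 to 318 CPM in the medium clones, 109 to 172 CPM in the strong clones and 186 and 194 CPM in untreated cells. Most of this sum was *Vim*, which ES cells also express, at 782 CPM in T41S. *Col1a1* was at 126 CPM in T41S and at 3.88 CPM on average in the strong clones, whereas the defining fibroblast genes *Lum* and *Dcn* were at most 0.576 and 5.19 CPM in any library. *Pdgfra* and *Pdgfrb* went the other way, at 0.377 and 1.99 CPM on average in the weak and 4.55 and 5.35 CPM in the strong clones. The sum of 10 cardiac and skeletal muscle markers was 459 CPM in T41S and 15.6 to 29.6 CPM in the strong clones. It consisted mainly of *Acta1*, the skeletal muscle actin, at 390 CPM in T41S, with the cardiac actin *Actc1* at 51.4 CPM. *Actc1* was at 23.7 CPM on average in the weak clones and at 0.169 CPM in the strong clones. The cardiac regulator *Nkx2-5* was at 5.69 CPM on average in the weak clones, with 10.1 CPM in T41N, and at 0.630 CPM in the strong clones. The skeletal muscle regulators *Myod1* and *Myog* were at 0 in all 3 weak clones, but had only 2 and 4 counts over all 25 libraries. The sum of 7 ES cell markers was lowest in T41S, at 1503 CPM, and was 2986 to 3807 CPM in the strong clones. The part of these cell types in the levels of the 10 genes was not tested.

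Clones that share a mutation differed for some genes and hardly for others. The S45F clone C1 was above clone D9 for 9 of 10 genes, the T41I clone B9 above clone A6 for 8, the T41A clone E6 above clone C1 for 8, and the S37F clone G1 above clone H2 for 8. The share of all genes higher in the same clone was not determined, so these counts only describe the 10 genes. *Tagln* differed 3.24 times between the S45F clones, and *Acta2* 2.31 times between the T41I clones, whereas *Actg1* differed 1.00 times between the T41A clones and *Cnn2* 1.01 times between the S37F clones. Within a mutation the SD of the log2 level was 0.74 for *Acta2* and 0.80 for *Tagln* (4 pairs), against 2.09 and 1.67 over the 15 clones. For *Tpm2* the values were 0.19 and 1.06, so that its level varied less between clones of 1 mutation.

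Across the 15 clones the 10 genes rose and fell together on the log2 (CPM + 1) scale, in a pattern that rested largely on the weak clones. The median Pearson correlation over the 45 pairs of genes was 0.844, and 45 of 45 were positive. Over the 12 medium and strong clones the median was 0.517, over the 9 strong clones 0.222, and over the 10 CHIR99021 libraries 0.0818. These points share library depth and, in the clones, the mutation, and are given with no test. The genes were chosen on their levels in these clones, and the median over pairs of other genes was not determined. The genes most like *Acta2* among 7001 genes whose mean in the clones reached 20 CPM were *Thbs1* (r = 0.970), *Flnc* (0.967), *Pdlim5* (0.965), *Tpm1* (0.960) and *Itgb1* (0.959). *Thbs1* encodes thrombospondin 1, *Flnc* a filamin that crosslinks actin, *Pdlim5* a protein of the Z disc and stress fibres, and *Itgb1* the β1 integrin of focal adhesions. The 3 genes most opposed to *Acta2* were the pseudogene *Rpl10a-ps1*, *Mkrn1* and *Stat3*, the last of these the mediator of leukemia inhibitory factor, with r from -0.939 to -0.938. In the CHIR99021 libraries the same measure was 0.63 for *Thbs1*, -0.36 for *Flnc* and -0.41 for *Tpm1*.

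**Figure D2:**
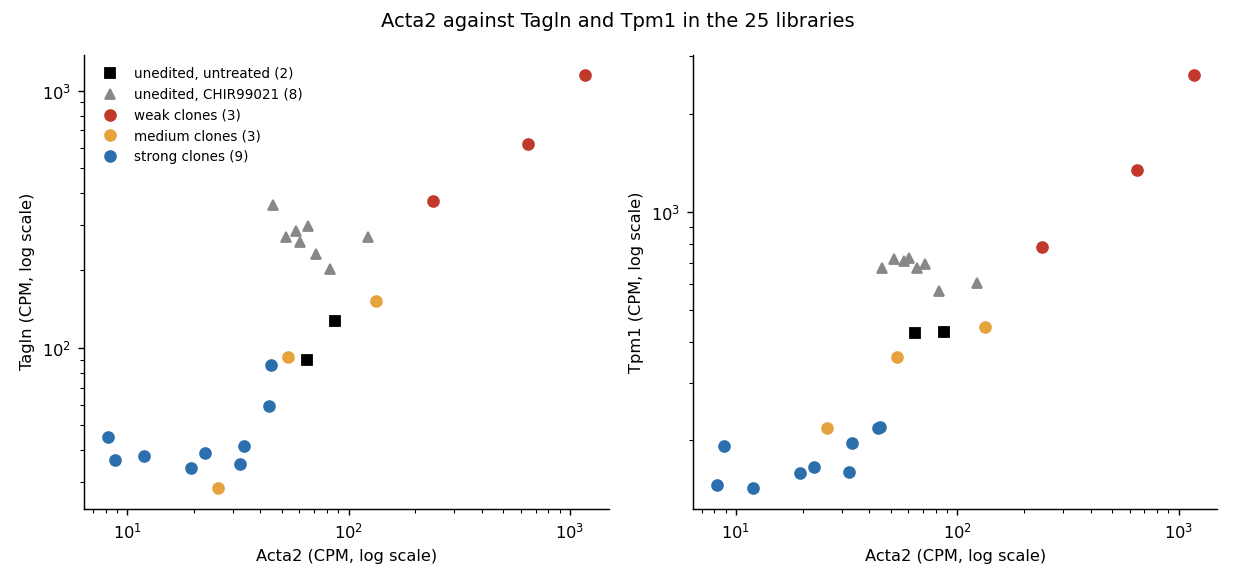
Level of *Acta2* against *Tagln* (left) and *Tpm1* (right) in CPM on log scales, 1 point per library, for 2 untreated and 8 CHIR99021-treated unedited libraries and 15 clones. In the clones the 3 weak points stand at the upper right, and the treated unedited cells lie above the clones with the same *Acta2* level.

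Treatment of unedited cells with CHIR99021 split the genes. Of 10033 genes in the fit, 12.5% changed with the dose (edgeR quasi-likelihood test, Benjamini-Hochberg adjusted p under 0.05), 5.89% upward and 6.63% downward. Among the 10 genes, 3 rose (*Tagln*, *Tpm1* and *Cald1*), 2 fell (*Acta2* and *Actb*) and 5 did not pass the test. Their median slope was 0.13 on the log2 scale per 10 µM, against 0.01 over all genes.

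*Tagln* rose at the lowest dose and stayed high. Its level was 89.7 and 128 CPM at 0 µM, 269 and 203 at 2.5 µM, 298 and 232 at 5 µM, 259 and 285 at 7.5 µM, and 359 and 269 at 10 µM. No treated library overlapped the untreated ones, and the fitted change was 1.24 ± 0.23 on the log2 scale per 10 µM (SE; adjusted p = 0.000303, edgeR; 10 libraries). *Tpm1* was at 427 and 429.5 CPM at 0 µM, 606 and 572 at 2.5 µM, 676 and 694 at 5 µM, 725 and 709.9 at 7.5 µM, and 676 and 720.0 at 10 µM. It rose by 0.69 ± 0.13 (SE; adjusted p = 0.000568, edgeR), again with no overlap between treated and untreated libraries. *Cald1* went from 122 and 116 CPM at 0 µM to 229 and 202 CPM at 10 µM, a slope of 0.73 ± 0.19 (SE; adjusted p = 0.0104, edgeR). Most of the rise in these 3 genes lay between 0 and 5 µM. With both 0 µM libraries left out, their slopes were 0.45, 0.31 and 0.09 and none of the 3 passed the test (adjusted p from 0.386 to 0.940).

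*Acta2* followed another course, with its highest level at 2.5 µM. It was at 64.7 and 87.2 CPM at 0 µM, 122 and 82.3 at 2.5 µM, 65.8 and 71.5 at 5 µM, 60.2 and 57.6 at 7.5 µM, and 45.7 and 52.0 at 10 µM. From 2.5 µM the libraries of each dose lay below those of the dose before it, without overlap, and both 10 µM libraries lay below both untreated ones. The slope was -0.69 ± 0.22 (SE; adjusted p = 0.0342, edgeR), and over the 8 treated libraries alone it was -1.33 (adjusted p = 0.00427, edgeR). The call over all 10 libraries was narrow: the direction was the same in 22 of 22 alternative settings and the test was passed in 11. These settings include the rank of the dose, which repeats the main fit because the doses are evenly spaced. The call was lost on leaving out replicate 2 at 0 µM (adjusted p = 0.0937, edgeR), either library at 7.5 µM (0.0618 and 0.0783) or either at 10 µM (0.0577 and 0.113). It was also lost in the 6 libraries with the higher mitochondrial share (slope -0.41, adjusted p = 0.252, edgeR). With all 10 libraries it was lost by DESeq2 (slope -0.77, adjusted p = 0.0536). A block for the lower and higher mitochondrial share also lost it (slope -0.55, adjusted p = 0.072, edgeR).

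*Actb* was at 9478 and 8932 CPM at 0 µM, 8088 and 8694 at 2.5 µM, 7878 and 7605 at 5 µM, 7991 and 7591 at 7.5 µM, and 6614 and 7423 at 10 µM. All 8 treated libraries were below both untreated ones, as were 11.5% of all genes with at least 20 CPM, and *Actb* was the only one of the 10 genes to show this. Its slope was -0.35 ± 0.10 (SE; adjusted p = 0.0186, edgeR). The call was lost without replicate 1 or 2 at 0 µM (adjusted p = 0.0634 and 0.0543) and without replicate 1 at 10 µM (0.0506), and that of *Cald1* without replicate 1 or 2 at 0 µM (0.171 and 0.0944).

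The remaining 5 genes had slopes near 0 with intervals that leave room for moderate change. *Actg1* had 0.22 (95% interval -0.05 to 0.49; adjusted p = 0.304, edgeR) and *Cnn2* 0.20 (-0.06 to 0.47; adjusted p = 0.353, edgeR). *Tagln2* had 0.05 (-0.22 to 0.33), *Tpm2* -0.02 (-0.40 to 0.35) and *Myl9*, at 6.58 to 15.9 CPM, -0.19 (-0.94 to 0.56). All 8 treated libraries were nonetheless above both untreated ones for *Actg1*, *Tagln2* and *Cnn2*, as for *Tagln*, *Tpm1* and *Cald1*, which makes 6 of 10 genes beside 7.95% of all genes with at least 20 CPM. For *Cnn2* this separation was within counting error, with the lowest treated library at 277.4 CPM and the higher untreated one at 275.4 CPM. For *Tagln2* the highest values, 422 and 469.9 CPM, came at 2.5 µM, and its 10 µM libraries were at 372 and 421 CPM.

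**Figure D3:**
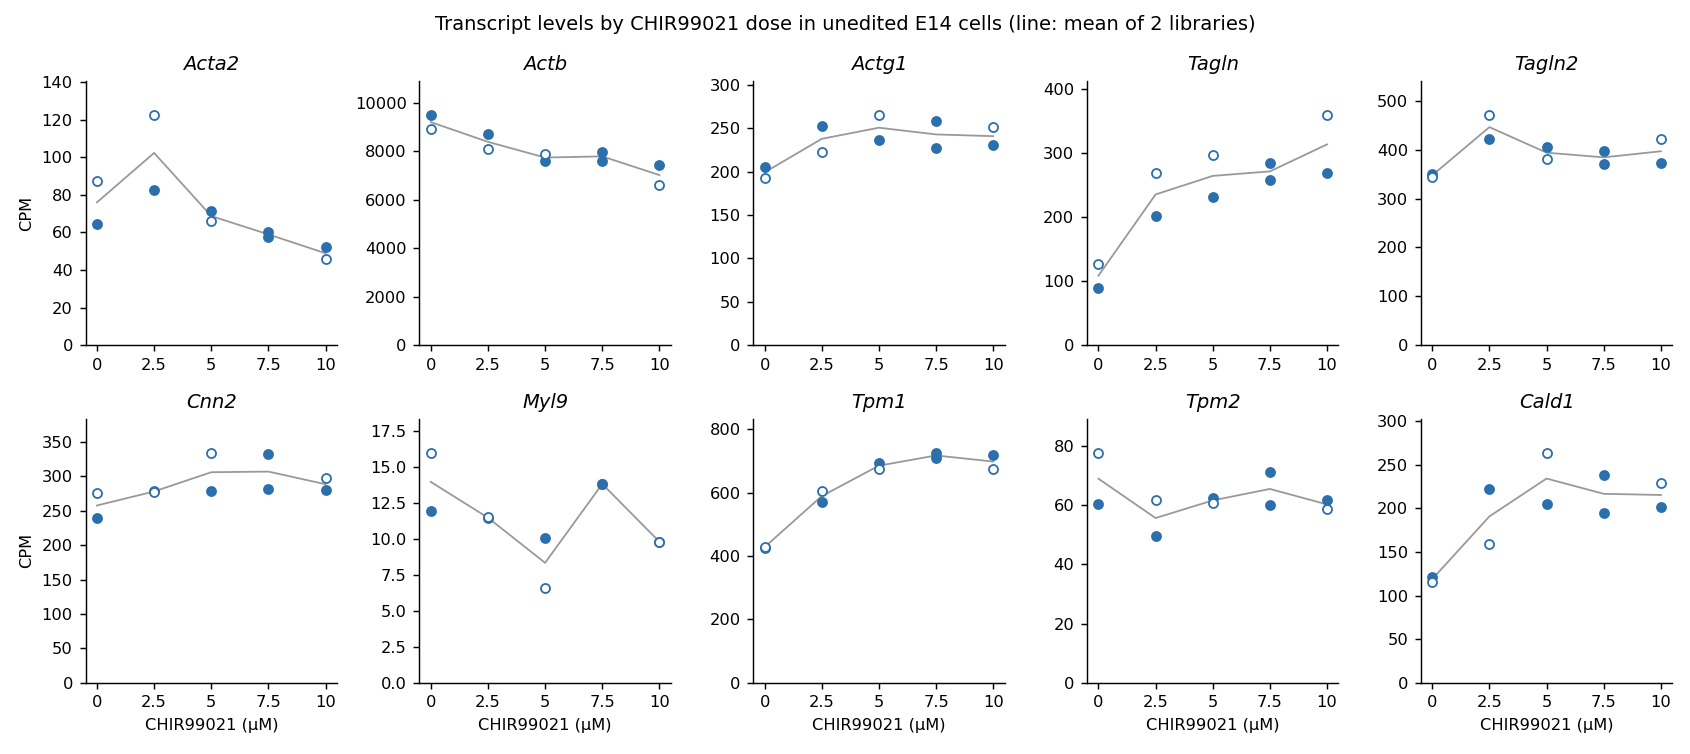
Transcript level (CPM) of each gene by CHIR99021 dose (µM) in unedited cells, 2 libraries per dose, with the mean as a line and the 4 libraries of lower mitochondrial share as open circles. *Tagln*, *Tpm1* and *Cald1* step up from 0 to 5 µM, *Actb* declines, and *Acta2* peaks at 2.5 µM and is lowest at 10 µM.

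Set side by side, the slopes on CHIR99021 dose and the differences between strong and weak clones had opposite signs for some of the genes. The slopes start from untreated cells, whereas the differences between clones start from the weak clones. *Acta2* and *Actb* fell with the dose and were lower in strong than in weak clones, but of the pair only *Acta2* was lower in strong clones than in untreated cells, and the strong mean of *Actb* was 1.12 times the untreated mean. *Tagln*, *Tpm1* and *Cald1* rose with the dose, by 1.24, 0.69 and 0.73, but were lower in strong than in weak clones, by -3.97, -3.17 and -2.52 on the same log2 scale. For *Tagln* the untreated mean of 109 ± 26.8 CPM (SD, n = 2) lay between 314 ± 63.9 CPM at 10 µM (SD, n = 2) and 46.1 ± 16.8 CPM in strong clones (SD, n = 9). The strong means of *Tagln*, *Tpm1* and *Cald1* were 0.425, 0.414 and 0.860 times the untreated means, and for *Cald1* the strong and untreated ranges overlapped. The difference between the response to CHIR99021 and the response to mutation was not tested, since the groups and the contrasts are not of the same kind. Fibroblast and mesenchymal markers also rose in sum with treatment, from 186 and 194 CPM to 283 to 441 CPM, with *Vim* at 289 CPM on average, while none of the 4 that could be fitted passed the edgeR test. Of the 7 ES cell markers 5 fell with the dose, beside 6.63% of all genes, and the mesoderm marker *T* rose by 2.74 (adjusted p = 3.79e-06, edgeR). The part of such cells in the change of the 10 genes was not tested.

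**Figure D4:**
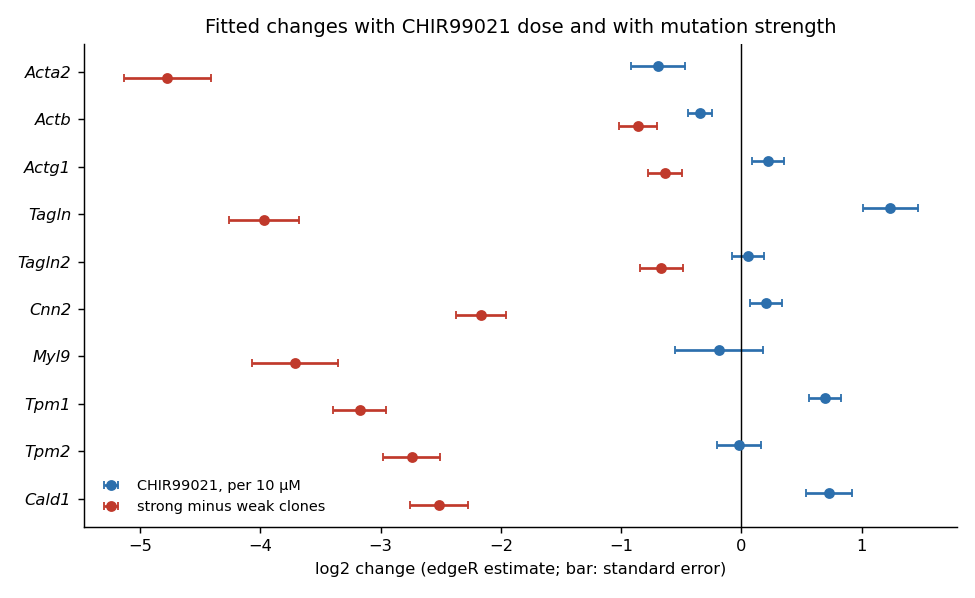
Fitted log2 change of each gene with CHIR99021 (blue, per 10 µM, 10 libraries) and between strong and weak clones (red, 9 and 3 clones), with standard errors as bars. *Tagln*, *Tpm1* and *Cald1* lie to the right of 0 for the dose and to the left for the clones, and all 10 red points lie to the left.

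Within the strong class, codon 37 was compared with codon 41, a contrast other than that between strong and weak clones. The strong clones were among those on which the genes were chosen, so for the 10 genes this test is not independent of that choice. *Acta2* was at 11.9 CPM in S37A, 8.79 in S37C, 22.4 and 8.18 in S37F and 33.6 in S37Y, against 32.4 and 43.9 in T41A and 44.8 and 19.4 in T41I. The ranges of the codon 37 and codon 41 clones overlapped. The fitted difference was -0.93 ± 0.51 (SE; 95% interval -1.998 to 0.14; adjusted p = 0.677, edgeR). Of 10452 genes 0.0191% were called, namely *Ifitm3* and *Plagl1* (named after their values were seen), and 846 had an unadjusted p under 0.05. None of the 10 genes was called by edgeR or by DESeq2. *Acta2* alone passed where genes of low counts were left in (adjusted p = 0.000196), against adjusted p-values up to 1 in the other settings. The remaining 9 genes differed by -0.56 for *Myl9* (95% interval -1.71 to 0.59) to 0.23 for *Tagln2* (-0.15 to 0.61). Summed over 7 primitive endoderm markers, the level was 46.0 to 262 CPM at codon 37, against 7.76 to 83.3 CPM at codon 41, an overlapping range, and 16.3 and 24.5 CPM in untreated cells. The differences of the 5 that could be fitted ran from 1.27 for *Sox7* to 1.68 for *Gata6* on the log2 scale, and none was called by edgeR (lowest adjusted p = 0.494). The part of such cells in the levels of the 10 genes was not tested.

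Other genes of the actin cytoskeleton were counted from lists set beside the 10. Of 22 further contractile and stress fibre genes in the dose fit, *Actn1* (0.41, α-actinin 1) and *Pdlim7* (0.47) rose, and *Tagln3*, of low level at 14.5 CPM and named after its values were seen, fell by 1.74. Of 30 regulators of filament dynamics 5 rose, namely *Gsn* (0.92, the severing protein gelsolin), *Msn* (0.57, moesin), *Wdr1* (0.53), *Arpc1b* (0.52, a subunit of the Arp2/3 complex) and *Cttn* (0.51, cortactin), while the formin *Diaph1* fell by 0.79. These counts, 2 of 22 and 5 of 30 upward, stand beside the background of 5.89% of all genes.

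Among 13 genes for Srf, its cofactors and their targets 3 rose, *Ccn1* (0.90), *Fhl1* (0.70) and, at a mean of 11.6 CPM and named after its values were seen, *Tgfb1i1* (1.25), and 0 fell. Of 12 genes of the TGF-β pathway *Tgfb2* (1.77, a ligand), *Smad3* (0.61, a signal transducer) and *Smad7* (0.51, an inhibitor) rose, and the repressors *Ski* and *Skil* fell by 0.86 and 0.66. Of all genes in the fit 5.89% rose and 6.63% fell. Of the 3 other actin isoforms listed only *Acta1* could be fitted, and it rose by 1.29 (adjusted p = 0.000133, edgeR).

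Between strong and weak clones the same lists were mostly lower in strong clones. Of the contractile and stress fibre genes 18 of 22 were called lower and 1 higher, with a median log2 difference of -1.11, and of the filament dynamics genes 20 of 30 lower and 0 higher, with a median of -0.50. The counts were 6 lower and 1 higher of 11 for Srf and its targets, and 5 and 1 of 12 for the TGF-β pathway. Over all 10452 genes 29.8% were called, 16.7% lower and 13.1% higher, with a median of 0.00. The 10 genes themselves, all lower in strong clones, had a median of -2.63. As the categories were drawn from these libraries, the counts describe them and are not independent evidence of a direction.

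**Figure D5:**
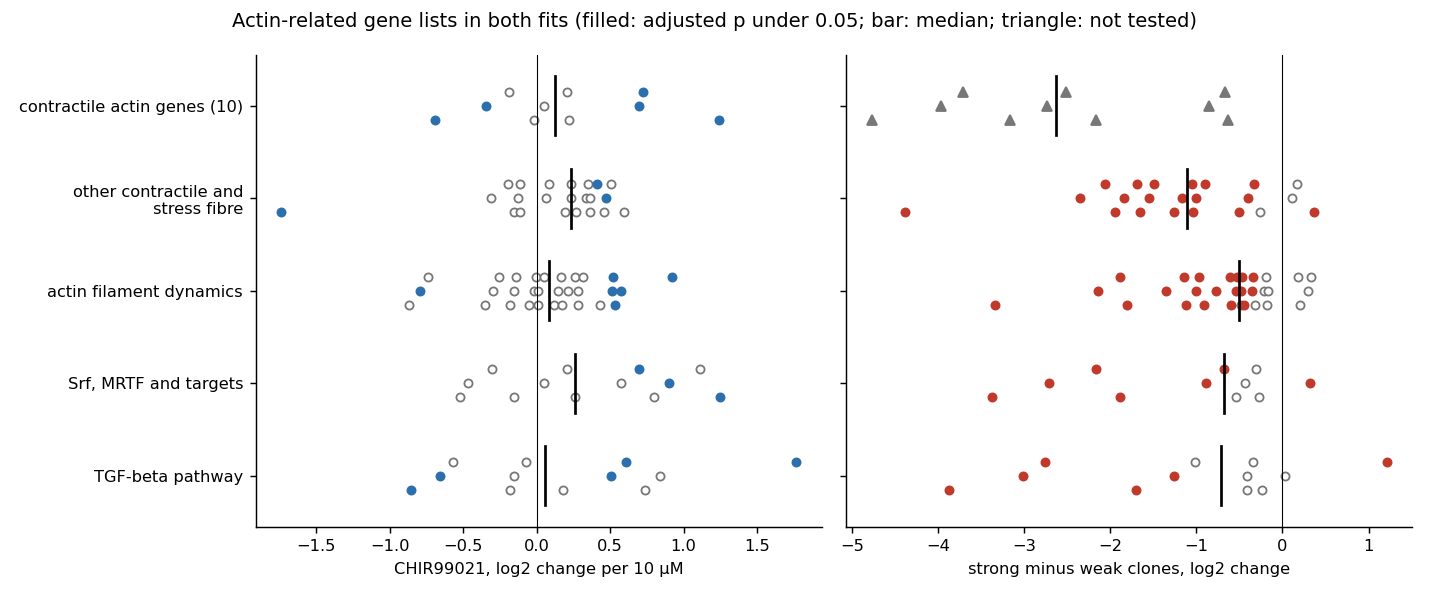
Log2 change of each gene of 5 lists with CHIR99021 (left, per 10 µM) and between strong and weak clones (right), with a bar at the median of each list; filled points have an adjusted p under 0.05 (edgeR) and triangles were not tested. On the left the medians lie between 0.05 and 0.26, and on the right between -2.63 and -0.50.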

How the data were processed

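The deposited values were raw counts per gene, which the authors made in Galaxy: adapters were trimmed, ribosomal reads removed, the rest aligned to mm10 by RNA STAR, duplicates removed with UMI-tools and Picard, and reads counted by featureCounts 2.0.1 (version from the submitters' processing notes). Annotation release and strand setting are not given in the sources used here. Counts were divided by the library total to give CPM. Symbols and positions came from GENCODE M21 (GRCm38), which held 48058 of 48440 identifiers.

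Genes were filtered by filterByExpr (minimum count 10), scaled by TMM and tested by the quasi-likelihood F-test of edgeR 4.0.16, with Benjamini-Hochberg adjustment over all genes fitted and a threshold of 0.05. The slope on dose was fitted over the 10 unedited libraries, and codon 37 against 41 and strong against weak over the 15 clones with 4 levels (weak, medium and strong at either codon). Alternatives included DESeq2 1.42.0, other scalings, no filter, thinned counts, a replicate block, sets by mitochondrial share (0.8%) and leaving out each library. Steps were tested on simulated data.

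Libraries held 306157 to 2083398 counts, so that 3 counts, the limit that a count of 0 allows, correspond to 1.44 to 9.80 CPM, for counting error only. The 10 genes, the lists and the tests were chosen with earlier results of these data known. Named genes were the 10, up to 5 called genes per list with the largest slopes and at least 20 CPM, and the 5 most and 3 least like *Acta2*. The results of 1 further gene list are not reported here. MES categories came from the study, not from the sample labels.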

Additional observations from a re-analysis of the deposited data

Results flagged for a closer look

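The 10 genes were examined for libraries far from the rest in the 9 strong clones and in the strong clones of codon 37 and of codon 41, 30 groups in all, of which chance flags about 1 in 20. One group stood out: *Tagln* in T41I clone B9, at 86.1 CPM, was the highest of the 9 strong clones, and its gap to the next, T41A clone E6 at 59.5 CPM, was 0.513 of the whole range. It still lay below the untreated 89.7 and 128 CPM. The other T41I clone was at 34.1 CPM.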

How the results depend on the processing

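The number of genes changing with dose (1256) became 121 without both 0 µM libraries and 252 with counts thinned to the smallest library, and leaving out 1 library gave 527 (without replicate 1 at 0 µM) to 1325, with 779 without replicate 2 at 0 µM. Of the 10 genes 5 were called. This became 3 in the 6 libraries with the higher mitochondrial share, 1 without both 0 µM libraries (*Acta2*), 3 without both 10 µM libraries, and 2 to 5 on leaving out 1 library, with 2 without replicate 2 at 0 µM and 3 without replicate 1 at 0 µM or at 10 µM. *Tagln* and *Tpm1* kept their call in 21 of 22 alternatives, *Cald1* in 18, *Actb* in 17 and *Acta2* in 11, and no called slope changed sign. The 22 include the rank of the dose, which could not differ from the main fit, as the doses are evenly spaced. For codon 37 against 41, the 2 genes became 88 with no filter (1 of the 10 genes), 12 with DESeq2, 7 in the 9 strong clones, 27 with MES as a covariate there, 4 with thinned counts, and 1 to 5 on leaving out 1 clone, with 0 of the 10 genes called. Strong against weak clones gave 3118 genes, or 1689 without T41S and 1689 to 2993 on leaving out 1 weak clone, and the difference in *Tpm2* was then -1.99 in place of -2.74. With MES as a number in place of the categories 2460 genes were called, and the slopes of the 10 genes were all negative, on a scale of MES units that cannot be set beside the differences between categories. The cause of these shifts was not tested. Deviations of the replicate 1 libraries from their dose means had correlations from -0.14 to 0.12 over 10 pairs of libraries. Counting error is part of every deviation, so these low values cannot exclude that replicate numbers pair the dose libraries. With a replicate block 1140 genes and 5 of the 10 were called, and with a block for the mitochondrial share 1519 genes and 4 of the 10. Depth limits *Myl9* most.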
